A study of Homo sapiens with 48 samples.

Results

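NGI-1 was set directly against copanlisib after 24 h in TMD8 cells, a comparison of 4 of the 48 RNA-seq libraries of a study of 2 lines derived from human diffuse large B cell lymphoma. Both lines, TMD8 and HBL1, belong to the activated B cell-like class, and the labels describe them as Cas9 engineered and name no guide RNA. The tested cells had received 5 µM NGI-1 for 24 h (2 libraries), and they were set against cells that had received 20 nM copanlisib for 24 h (2 libraries). TMD8 cells given the vehicle DMSO for 24 h (2 libraries) stood outside the contrast, and their values are given last wherever they are shown. The same contrast after 3 h and 6 h in TMD8 and after 24 h in HBL1, each with 2 libraries per compound, was used for comparison. Each compound was given at a single dose, and all groups carried the Cas9 engineering.

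NGI-1 inhibits the oligosaccharyltransferase, the enzyme of the endoplasmic reticulum (ER) that moves a preassembled sugar chain onto asparagines of newly made proteins. Proteins that lack these N-glycans fold poorly, and cells answer with the unfolded protein response, in which the sensors IRE1, PERK and ATF6 raise chaperones, degradation factors and, through ATF4 and CHOP, stress genes. Copanlisib inhibits PI3K kinases, which act below the B cell receptor, a glycoprotein complex on which lymphomas of this class depend. The comparison therefore sets a block in glycoprotein maturation against a block in receptor signalling.

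The 4 libraries held 8773804 and 8622515 counted reads with NGI-1 and 10125389 and 8083731 with copanlisib, and the DMSO libraries held 9412180 and 10417212. All 6 B cell markers and all 6 markers of the activated B cell-like class averaged at least 1 CPM, the reads of a gene scaled to the size of its library. The T cell genes CD3D, CD3E, CD3G and TRAT1, the myeloid genes FCGR3A, S100A8, S100A9, MPO and FCN1, and the epithelial genes EPCAM and KRT18 had 0 reads in all 6 libraries. Summed markers of T and NK cells stood at 6.67 and 4.6 CPM with NGI-1, against 3.48 and 5.07 CPM with copanlisib. CD8A and CD4 among them and the myeloid gene ITGAM averaged at least 1 CPM. So did 6 of 12 stromal and epithelial markers, COL1A1, COL1A2, DCN, ACTA2, KRT8 and CDH1. Summed stromal and epithelial markers stood at 88.5 and 97.9 CPM with NGI-1, against 109.1 and 101.9 CPM with copanlisib. The part of these genes in the results was not tested. The 2 copanlisib libraries stood further apart from each other (chi-square per degree of freedom 8.61 over their counts) than the 2 NGI-1 libraries (3.05) or the 2 DMSO libraries (3.29). Each copanlisib library correlated best, not with the other, but with the library of the same replicate number from cells given the BTK inhibitor acalabrutinib (r = 0.992 and 0.991 across genes), whereas each NGI-1 library was closest to the other NGI-1 library (r = 0.992). Many results below are therefore also given without single libraries, though not every call or count that this changed.

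After 24 h, 153 of 13881 genes were higher with NGI-1 than with copanlisib (1.10% of those tested) and 46 were lower (0.331%). A gene was called at an adjusted p under 0.05 in edgeR's quasi-likelihood test with Benjamini-Hochberg adjustment, which is the source of every adjusted p below. In counts over gene lists, rose and fell mean called higher and called lower. Of these 199 genes, 37 were at least 2-fold higher and 9 at least 2-fold lower, and 1192 genes had an unadjusted p under 0.05. In all 199 the 2 NGI-1 libraries lay beyond both copanlisib libraries. A lack of overlap in a called gene therefore adds nothing to its call, and the share over all genes was not counted. Against DMSO, by contrast, NGI-1 called 2185 genes higher (15.7%) and 2070 lower (14.9%), and copanlisib 2195 higher (15.8%) and 2216 lower (16%). Those comparisons share libraries with the direct one and with each other. Without NGI-1 replicate 1 there were 104 calls (27 lower), without NGI-1 replicate 2 there were 106 (14 lower), without copanlisib replicate 1 there were 135 (39 lower), and without copanlisib replicate 2 there were 103 (27 lower). Of the 199 genes, 58 were called in each of these 4 fits. MYOF, with 22 reads over the NGI-1 libraries and 0 over the copanlisib libraries, was lost without copanlisib replicate 1 (adjusted p = 0.0592), and ZNF214, with 11 and 0 reads, without any 1 of the 4 libraries (0.131 to 0.247). Nothing in the labels places the 2 libraries of a group in different cultures, and the p-values therefore reflect a spread that may be technical. In bulk RNA, fewer cells of a kind and less RNA per cell cannot be told apart.

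**Figure D1:**
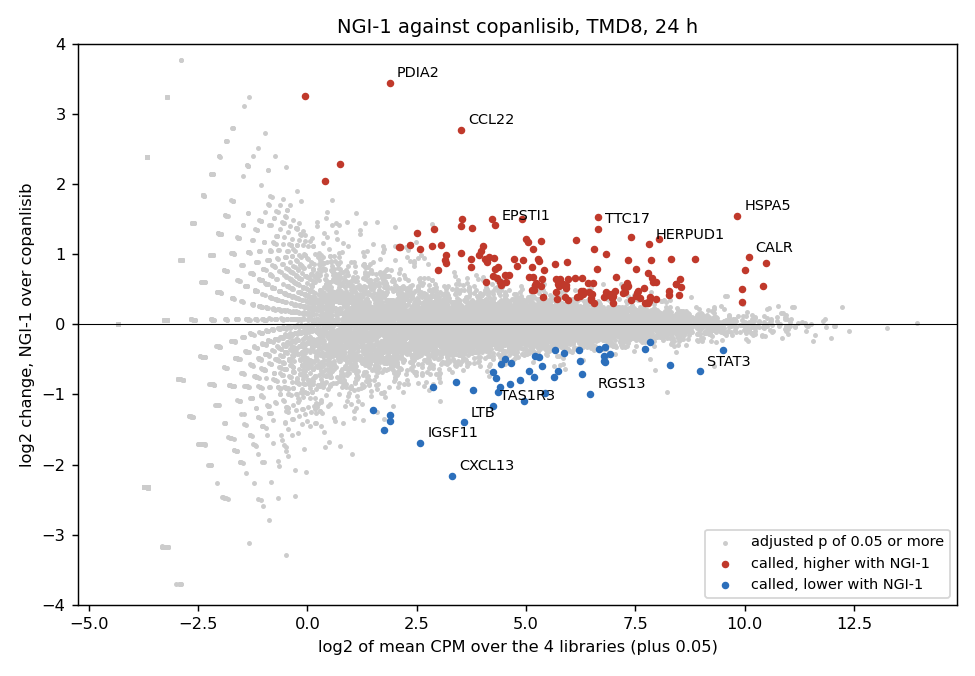
Log2 change of each gene with NGI-1 over copanlisib in TMD8 at 24 h (vertical axis) against the log2 of its mean CPM over the 4 libraries (horizontal axis), with the 153 genes called higher in red, the 46 called lower in blue and others in grey. HSPA5, CALR and other abundant ER genes stand out at the upper right and CXCL13 lies lowest among the called genes; 25 genes lie beyond the axis, among them the called MYOF and ZNF214, which had 22 and 11 reads over the NGI-1 libraries and 0 over the copanlisib libraries.

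ER chaperones rose with NGI-1. Of 20 ER chaperones and co-chaperones tested, 13 rose and 0 fell, and the median log2 change of the list was 0.90, against 0.00 over all genes tested. HSPA5 (BiP), the HSP70 of the ER lumen, was 1.55 ± 0.14 higher on the log2 scale (SE, n = 2 per group), and MANF, SDF2L1, HYOU1 and CRELD2, all known targets of the unfolded protein response, were 1.19 to 1.53 higher. Over 7 lists of ER and secretory genes together, 38 of 151 genes rose and 0 fell. Leaving out any 1 of the 4 libraries left 11 or 12 of the chaperones called.

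Promoters of these chaperones are shown because several hold the ER stress element (ERSE: CCAAT, any 9 bases, CCACG), a sequence known to be bound by NF-Y together with ATF6 and XBP1. Both strands were searched over 250 bases before and 50 after each start in the RefSeq table (GRCh38.p14), and the 250 bases before the start are printed, 5′ to 3′ on the gene's strand, with the match in capitals. In SDF2L1 the match is the shorter ERSE-II (ATTGG, any 1 base, CCACG).
HSPA5: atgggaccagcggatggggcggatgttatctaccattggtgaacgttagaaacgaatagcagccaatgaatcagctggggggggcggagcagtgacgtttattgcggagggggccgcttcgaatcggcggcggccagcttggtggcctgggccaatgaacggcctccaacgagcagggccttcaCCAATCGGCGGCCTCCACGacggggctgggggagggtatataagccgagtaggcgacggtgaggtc
SDF2L1: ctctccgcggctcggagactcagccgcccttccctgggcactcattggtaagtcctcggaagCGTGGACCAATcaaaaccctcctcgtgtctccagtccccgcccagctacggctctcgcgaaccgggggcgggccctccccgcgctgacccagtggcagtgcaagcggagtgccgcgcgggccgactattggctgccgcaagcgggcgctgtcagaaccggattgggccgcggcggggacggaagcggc
CRELD2: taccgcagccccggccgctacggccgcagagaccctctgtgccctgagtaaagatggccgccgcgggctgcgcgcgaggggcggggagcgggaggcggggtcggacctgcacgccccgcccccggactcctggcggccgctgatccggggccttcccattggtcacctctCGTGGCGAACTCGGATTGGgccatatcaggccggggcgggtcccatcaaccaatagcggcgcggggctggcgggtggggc

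The HSPA5 stretch is chr9:125241344-125241593 on the minus strand, and its ERSE runs from -66 to -48, counting the last base before the start as -1. In SDF2L1 (chr22:21642052-21642301, plus strand) the match lies on the reverse strand at -188 to -178, and in CRELD2 (chr22:49918384-49918633, plus strand) it lies on the reverse strand at -80 to -62. ERO1LB (ERO1B), an ER oxidase described below, has a reverse-strand ERSE at -243 to -225. The ERSE was found in 6 of 20 chaperone promoters (30%), in 9 of the 124 genes called higher that had a promoter in the table (7.26%) and in 25 of all 27305 genes with a promoter (0.0916%). ERSE-II was found in 2 of 20 chaperones (10%), 4 of 124 genes called higher (3.23%) and 19 of 27305 genes (0.0696%). Of the 6 chaperones with an ERSE, SERP1 was not called (log2 change 0.09). The called MANF, DNAJB11, DNAJC3 and PPIB held neither ERSE nor ERSE-II. The stretches printed are all from called genes with a match. A gene counted if any of its promoter windows held the letters. ERSE and ERSE-II can overlap, and a match is a description of the sequence, not a binding site. Among the 46 genes called lower, 34 had a promoter in the table, under 80%, so no share is given for them.

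HSPA5 stood at 1421 and 1298 CPM with NGI-1, against 495 and 431 CPM with copanlisib and 559.9 and 463 CPM with DMSO (adjusted p = 5.78e-10). Both NGI-1 libraries were high, and the copanlisib libraries lay at the level of the DMSO libraries. SDF2L1, a partner of BiP that holds unfolded proteins in solution, had 45.1 and 43.9 CPM with NGI-1, against 16.7 and 14.6 CPM with copanlisib and 13.2 and 17.4 CPM with DMSO (log2 change 1.5 ± 0.16, adjusted p = 3.16e-08). The table lists MANF, a secreted factor that binds BiP, under its older symbol ARMET, and it had 145 and 151 CPM with NGI-1, against 54.3 and 48.4 CPM with copanlisib (1.53 ± 0.17, adjusted p = 2.50e-08). HYOU1, the nucleotide exchange factor that resets BiP, had 258 and 215 CPM with NGI-1, against 110.1 and 88.9 CPM with copanlisib (1.25 ± 0.15, adjusted p = 5.05e-07). These groups did not overlap in any of the genes, as in every called gene.

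Other folding factors rose by less. CALR, a lectin that binds glycans trimmed to 1 glucose, had 1501 and 1373 CPM with NGI-1, against 796 and 680.4 CPM with copanlisib (0.96 ± 0.09, adjusted p = 1.52e-09). Its membrane-bound relative CANX had 1363 and 1210.2 CPM with NGI-1, against 826 and 684 CPM with copanlisib (0.77 ± 0.09, adjusted p = 5.70e-08). HSP90B1, the HSP90 of the ER, had 1957 and 1777 CPM with NGI-1, against 1055 and 971 CPM with copanlisib and 839 and 731 CPM with DMSO (0.88 ± 0.11, adjusted p = 8.54e-07). The copanlisib libraries of HSP90B1 thus lay between the NGI-1 and the DMSO libraries. The co-chaperones DNAJB11 and DNAJC3 and the prolyl isomerases PPIB and FKBP2 were 0.92 to 1.07 higher, and SIL1, which acts on BiP as HYOU1 does, 0.61 higher. FKBP2 was lost without copanlisib replicate 1 (adjusted p = 0.0636), and SIL1 without any 1 of the 4 libraries (0.0738 to 0.42). The 7 members that did not pass were DNAJB9, DNAJC10, SDF2, FKBP11, UGGT1, CNPY2 and SERP1.

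Disulfide formation and ER-associated degradation followed with smaller shares. Of 15 protein disulfide isomerases and ERO1 oxidases, 7 rose and 0 fell (median log2 change 0.19). Of 22 genes of ER-associated degradation, 5 rose and 0 fell (median 0.14). PDIA2, a disulfide isomerase best known from pancreas, had the largest change among called genes that have an ID and average 1 or more in log2 CPM, with 6.67 and 6.67 CPM with NGI-1, against 0.60 and 0.60 CPM with copanlisib and 0.54 and 0.29 CPM with DMSO (3.45 ± 0.55, adjusted p = 9.41e-05). PDIA4 had 448 and 393 CPM with NGI-1, against 233 and 207 CPM with copanlisib (0.93 ± 0.12, adjusted p = 1.98e-06). PDIA3, the partner of the lectins CALR and CANX, had 650.2 and 566 CPM with NGI-1, against 337 and 298 CPM with copanlisib (0.94 ± 0.10, adjusted p = 1.35e-08), and reads of its pseudogene may be shared with it. ERO1LB, which reoxidises disulfide isomerases, had 11.7 and 10.9 CPM with NGI-1, against 4.67 and 5.67 CPM with copanlisib (1.14 ± 0.30, adjusted p = 0.0359). In all 4 genes the groups were apart, but ERO1LB was no longer called without any 1 of the 4 libraries (adjusted p = 0.122 to 0.287). The list kept 4 calls without NGI-1 replicate 1 and 4 without copanlisib replicate 2.

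HERPUD1, a membrane protein that organises the degradation complex, had 314 and 303 CPM with NGI-1, against 139 and 141 CPM with copanlisib and 151 and 147 CPM with DMSO (1.15 ± 0.15, adjusted p = 1.98e-06). It was the 1 degradation gene called in every fit that left out a library. SEL1L, the adaptor of the ubiquitin ligase of this pathway, had 302 and 276 CPM with NGI-1, against 199.8 and 182 CPM with copanlisib (0.60 ± 0.12, adjusted p = 0.00235). EDEM1, which trims mannose from misfolded glycoproteins, had 168 and 162 CPM with NGI-1, against 108 and 97.7 CPM with copanlisib (0.68 ± 0.14, adjusted p = 0.00265). The calls of SEL1L and EDEM1 were lost without NGI-1 replicate 1 (adjusted p = 0.108 for SEL1L and 0.0634 for EDEM1) and without copanlisib replicate 2 (0.0965 for each). The degradation list had 2 calls without NGI-1 replicate 1, 2 without copanlisib replicate 2, 3 without NGI-1 replicate 2 and 4 without copanlisib replicate 1.

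**Figure D2:**
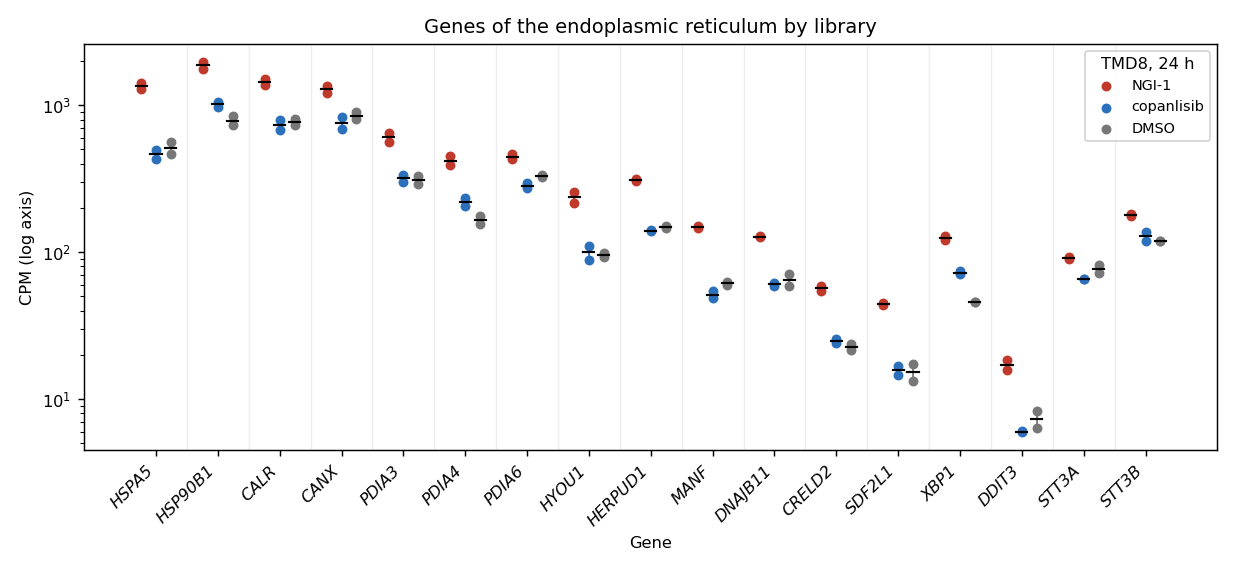
CPM on a log axis for 17 genes of the ER in the TMD8 libraries at 24 h, with NGI-1 in red, copanlisib in blue and DMSO in grey; points are libraries (2 per group), black bars are means and vertical lines join the libraries. In each gene both NGI-1 libraries lie above both copanlisib libraries, and for HSPA5 (1421 and 1298 CPM with NGI-1) the copanlisib and DMSO libraries lie together.

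Among the sensors and factors of the unfolded protein response, 2 of 12 genes rose and 0 fell. XBP1, the transcription factor spliced by IRE1, had 129 and 121 CPM with NGI-1, against 70.5 and 73.8 CPM with copanlisib and 45.6 and 45.4 CPM with DMSO (0.79 ± 0.13, adjusted p = 9.49e-05). Copanlisib thus lay above DMSO for XBP1 (0.66 ± 0.13, adjusted p = 0.000172), while NGI-1 lay further above it (1.46 ± 0.13). DDIT3, which encodes CHOP, had 18.3 and 15.7 CPM with NGI-1, against 5.96 and 6.03 CPM with copanlisib and 6.35 and 8.30 CPM with DMSO (1.5 ± 0.33, adjusted p = 0.00686). Its call was lost without NGI-1 replicate 1 (adjusted p = 0.127), copanlisib replicate 1 (0.0955) or copanlisib replicate 2 (0.0833). ATF4, the factor translated when PERK acts, had 193 and 189 CPM with NGI-1, against 133 and 133 CPM with copanlisib and 206 and 200.3 CPM with DMSO, a difference of 0.53 (95% confidence interval 0.23 to 0.82) that did not pass (adjusted p = 0.0527). The sensor genes ATF6 (0.02, interval -0.16 to 0.21), ERN1 for IRE1 (0.26, interval -0.14 to 0.66) and EIF2AK3 for PERK (0.19, interval -0.09 to 0.47) did not pass either. Of 32 targets of ATF4, 3 rose and 0 fell (median 0.28). Against DMSO the list's median was -0.15 with NGI-1 (4 higher, 9 lower) and -0.52 with copanlisib (2 higher, 19 lower). Over all genes, 15.7% were higher and 14.9% lower with NGI-1 against DMSO, and 15.8% and 16% with copanlisib. AARS (AARS1), a tRNA synthetase, had 314 and 296 CPM with NGI-1, against 219.8 and 179 CPM with copanlisib and 276 and 252 CPM with DMSO (0.61 ± 0.10, adjusted p = 5.87e-05). The list had 1 call without NGI-1 replicate 1, 1 without NGI-1 replicate 2, 1 without copanlisib replicate 1 and 2 without copanlisib replicate 2.

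The enzyme that NGI-1 inhibits also moved at the RNA level. Of 12 oligosaccharyltransferase subunits, 5 rose and 0 fell (median 0.27). STT3A and STT3B are its alternative catalytic subunits. STT3B had 181 and 176 CPM with NGI-1, against 138 and 119.9 CPM with copanlisib and 119 and 118 CPM with DMSO (0.47 ± 0.08, adjusted p = 0.00025). STT3A had 92.4 and 89.8 CPM with NGI-1, against 65.5 and 65.4 CPM with copanlisib and 81.9 and 72 CPM with DMSO (0.48 ± 0.10, adjusted p = 0.00384). Both genes lay higher with NGI-1 without overlap, but the copanlisib libraries of STT3A were below DMSO and those of STT3B were at or above it. RPN1, a shared structural subunit, had 211 and 221 CPM with NGI-1, against 158 and 158 CPM with copanlisib (0.45 ± 0.09, adjusted p = 0.00147). MAGT1, an oxidoreductase that works with STT3B, had 148 and 141 CPM with NGI-1, against 109 and 108 CPM with copanlisib (0.41 ± 0.10, adjusted p = 0.012), and DDOST was 0.30 ± 0.08 higher (adjusted p = 0.0295).

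Of these 5 subunits, STT3B and RPN1 were called in every fit that left out a library. STT3A was lost without NGI-1 replicate 1 (adjusted p = 0.0959), copanlisib replicate 1 (0.0592) or copanlisib replicate 2 (0.0584), and MAGT1 and DDOST were lost without any 1 of the 4 libraries (0.0694 to 0.222 for MAGT1 and 0.0955 to 0.397 for DDOST). PRKCSH, the beta subunit of the glucosidase that trims the transferred glycan, had 421 and 399 CPM with NGI-1, against 281 and 270.5 CPM with copanlisib (0.57 ± 0.08, adjusted p = 4.55e-06). It was called in every such fit. Upstream of the enzyme, 1 of 32 genes of dolichol and N-glycan precursor synthesis rose, the mannosyltransferase ALG12, and 0 fell (median 0.16). ALG12 had 26.7 and 29.5 CPM with NGI-1, against 17.1 and 20.0 CPM with copanlisib (0.60 ± 0.14, adjusted p = 0.0132), a call lost without NGI-1 replicate 1 (0.0559), NGI-1 replicate 2 (0.255) or copanlisib replicate 1 (0.239). Of 38 translocon and vesicle transport genes 5 rose and 0 fell (median 0.14), and the list had 0 calls without NGI-1 replicate 1, 3 without NGI-1 replicate 2, 2 without copanlisib replicate 1 and 0 without copanlisib replicate 2.

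Interferon-stimulated genes rose as well. Of 22 tested, 15 rose and 0 fell, with a median log2 change of 0.94, and all 22 lay above 0. They include antiviral effectors such as MX1 and the OAS and IFIT genes. Without copanlisib replicate 2 there were 9 calls, and without each of the other 3 libraries 10 or 11, with medians of 0.87 to 0.99. The 7 members that did not pass were IFI44, ISG20, MX2, OAS1, STAT2, IRF9 and BST2. Each compound's own comparison with DMSO, which shares libraries with the direct one, is set beside this. The list's median was 0.53 with NGI-1 against DMSO (15 of 22 higher, 0 lower) and -0.29 with copanlisib against DMSO (5 higher, 8 lower). The medians of the ER chaperones were 0.95 (15 of 20 higher) and 0.07 (2 higher, 1 lower) in the same comparisons. Over all genes, 15.7% were higher and 14.9% lower with NGI-1 against DMSO, and 15.8% and 16% with copanlisib. The chaperone counts with copanlisib lay below these shares.

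Promoters of IFIT1 and IFIT3 are shown because the interferon-stimulated response element, a site bound by IRF factors, lies in 2 places in each. The letters searched were GAAA, any 2 bases, GAAA on both strands, a motif added after the values were seen, and the matches, all on the reverse strand, are in capitals.
IFIT1: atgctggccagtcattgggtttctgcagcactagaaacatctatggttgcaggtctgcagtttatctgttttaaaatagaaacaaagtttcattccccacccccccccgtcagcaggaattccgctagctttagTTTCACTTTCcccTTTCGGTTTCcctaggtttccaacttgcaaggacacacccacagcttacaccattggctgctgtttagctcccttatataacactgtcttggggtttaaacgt
IFIT3: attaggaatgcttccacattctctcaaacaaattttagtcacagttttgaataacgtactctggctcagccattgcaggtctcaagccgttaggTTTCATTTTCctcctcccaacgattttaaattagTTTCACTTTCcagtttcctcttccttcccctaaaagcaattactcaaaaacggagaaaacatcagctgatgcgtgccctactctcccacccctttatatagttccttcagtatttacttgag

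These stretches are the 250 bases before the RefSeq starts (GRCh38.p14) at chr10:89392373-89392622 for IFIT1 and chr10:89327747-89327996 for IFIT3, both on the plus strand. These letters were found in 21 of the 124 genes called higher that had a promoter in the table (16.9%) and in 1195 of all 27305 genes (4.38%). Only 16 of the 22 interferon-stimulated genes had a promoter in the table, so no share is given for the list. Genes that were not tested for expression are among the 27305, and since 10375 of the 13881 genes tested had a promoter in the table, under 80%, no share over the tested genes is given for any motif.

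MX1, a GTPase that blocks virus replication, had 387 and 348 CPM with NGI-1, against 166 and 149.6 CPM with copanlisib and 268 and 233 CPM with DMSO (1.22 ± 0.11, adjusted p = 9.36e-10). IFIT1, which binds foreign RNA caps, had 26.6 and 28.5 CPM with NGI-1, against 10.6 and 8.56 CPM with copanlisib and 21.0 and 21.0 CPM with DMSO (1.51 ± 0.21, adjusted p = 4.58e-06). In both genes the DMSO libraries lay between the NGI-1 and the copanlisib libraries. IFIT3, a partner of IFIT1, had 20.1 and 19.0 CPM with NGI-1, against 7.84 and 7.24 CPM with copanlisib and 17.6 and 13.7 CPM with DMSO (1.37 ± 0.23, adjusted p = 0.00025). ISG15, a ubiquitin-like modifier, had 43.2 and 53 CPM with NGI-1, against 22.5 and 23.3 CPM with copanlisib and 31.5 and 40.9 CPM with DMSO (1.07 ± 0.16, adjusted p = 3.79e-05). The NGI-1 and copanlisib libraries did not overlap in any of these genes, as in every called gene.

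OAS2 and OAS3, which make the activator of RNase L, were 0.79 ± 0.12 and 0.66 ± 0.09 higher, and XAF1, a pro-apoptotic target of interferon, was 1.21 ± 0.17 higher. Outside the list, EPSTI1, another interferon target, had 29.0 and 27.5 CPM with NGI-1, against 11.4 and 9.65 CPM with copanlisib and 15.2 and 14.2 CPM with DMSO (1.41 ± 0.16, adjusted p = 8.41e-08). EIF2AK2, which encodes the RNA-sensing kinase PKR, had 79.3 and 72.5 CPM with NGI-1, against 49.3 and 47.4 CPM with copanlisib and 86.3 and 84.1 CPM with DMSO (0.65 ± 0.11, adjusted p = 0.000253). For EIF2AK2 the NGI-1 libraries thus lay below DMSO. IRF7, the factor that drives type I interferon genes below TLR9 and MYD88, had 34.5 and 34.7 CPM with NGI-1, against 17.2 and 19.3 CPM with copanlisib and 23.9 and 23.9 CPM with DMSO (0.93 ± 0.16, adjusted p = 0.000386). Of 14 genes of TLR9 and MYD88 signalling, IRF7 and UNC93B1, which escorts TLR9 out of the ER, rose and 0 fell. UNC93B1 had 119.6 and 129 CPM with NGI-1, against 88 and 101 CPM with copanlisib (0.40 ± 0.10, adjusted p = 0.0331), a call lost without NGI-1 replicate 1 (0.11), NGI-1 replicate 2 (0.396) or copanlisib replicate 1 (0.367).

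**Figure D3:**
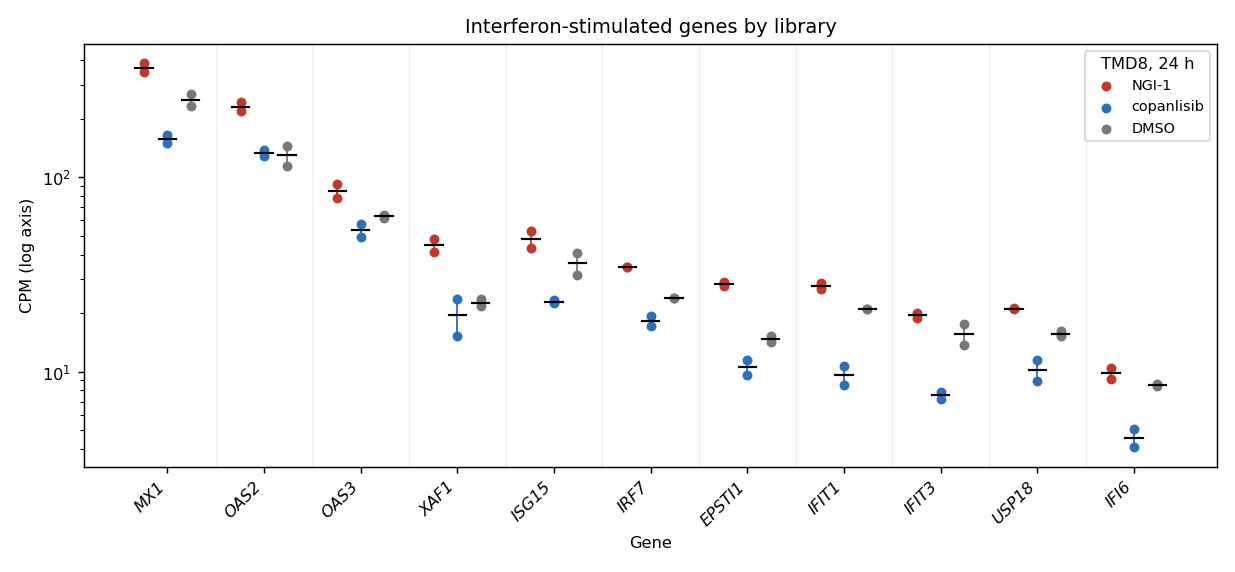
CPM on a log axis for 11 interferon-stimulated genes in the TMD8 libraries at 24 h, with NGI-1 in red, copanlisib in blue and DMSO in grey; points are libraries (2 per group), black bars are means and vertical lines join the libraries. Both NGI-1 libraries lie above both copanlisib libraries in each gene, and for MX1 (387 and 348 CPM with NGI-1) and IFIT1 the DMSO libraries lie in between.

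Fewer genes fell with NGI-1. CXCL13, the chemokine that draws CXCR5-bearing B cells into follicles, had 2.07 and 5.06 CPM with NGI-1, against 14.4 and 17.6 CPM with copanlisib and 13.8 and 16.3 CPM with DMSO (-2.16 ± 0.27, adjusted p = 3.81e-06). LTB, lymphotoxin beta, had 6.90 and 6.09 CPM with NGI-1, against 15.6 and 18.8 CPM with copanlisib and 2.15 and 1.91 CPM with DMSO (-1.40 ± 0.24, adjusted p = 0.000232). Both genes were lower with NGI-1 than with copanlisib, but for CXCL13 copanlisib stood at the DMSO level, and for LTB both compounds stood above DMSO (1.68 ± 0.31 with NGI-1 and 3.08 ± 0.28 with copanlisib). RGS13, a brake on G protein signalling in germinal centre B cells, had 58.2 and 60.3 CPM with NGI-1, against 106 and 129 CPM with copanlisib and 166 and 177 CPM with DMSO (-0.99 ± 0.14, adjusted p = 6.08e-06). It was the 1 of 11 germinal centre genes called lower, with 0 called higher. Of the 11, 3 had a change above 0, and the median over the list was -0.47. Against DMSO the list's median was 0.06 with NGI-1 (4 higher, 3 lower) and 0.73 with copanlisib (5 higher, 2 lower). IGSF11, an adhesion molecule of the immunoglobulin family, had 2.53 and 3.10 CPM with NGI-1, against 10.1 and 7.96 CPM with copanlisib and 5.70 and 3.91 CPM with DMSO (-1.69 ± 0.30, adjusted p = 0.000576). CXCL13, LTB, RGS13 and IGSF11 were among the 7 lower genes called in every fit that left out a library.

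Further genes that fell are given singly, most of them named after their values were seen or for the size of their change. STAT3, the transcription factor of IL6 and IL10 signalling, had 406 and 368 CPM with NGI-1, against 675 and 555 CPM with copanlisib and 587 and 553 CPM with DMSO (-0.67 ± 0.09, adjusted p = 1.98e-06). AHR, the aryl hydrocarbon receptor, had 91.4 and 92.3 CPM with NGI-1, against 142 and 125 CPM with copanlisib and 243 and 211 CPM with DMSO (-0.54 ± 0.10, adjusted p = 0.0014). PHLDA1, an immediate early gene, had 36.0 and 38.5 CPM with NGI-1, against 58.1 and 66.8 CPM with copanlisib and 58.6 and 60.1 CPM with DMSO (-0.74 ± 0.13, adjusted p = 0.00025). STAT3, AHR and PHLDA1 were lower with NGI-1 than with DMSO too, without overlap. IL4R, a chain of the receptors for IL4 and IL13, had 94.9 and 84.9 CPM with NGI-1, against 125 and 134 CPM with copanlisib and 32.2 and 29.8 CPM with DMSO (-0.53 ± 0.09, adjusted p = 0.000476). TAS1R3, a taste receptor subunit, had 13.0 and 10.2 CPM with NGI-1, against 22.3 and 29.7 CPM with copanlisib and 0.75 and 0.29 CPM with DMSO (-1.16 ± 0.23, adjusted p = 0.00192). GNB3, a G protein beta subunit, had 31.0 and 26.8 CPM with NGI-1, against 56 and 57.9 CPM with copanlisib and 5.70 and 4.20 CPM with DMSO (-0.98 ± 0.20, adjusted p = 0.00219). For IL4R, TAS1R3 and GNB3, as for LTB, both compounds stood above DMSO and copanlisib stood higher. The calls of IL4R (adjusted p = 0.0553), TAS1R3 (0.134) and GNB3 (0.118) were lost without NGI-1 replicate 2, and that of TAS1R3 also without copanlisib replicate 2 (0.111).

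CREB3L1, a transcription factor anchored in the ER membrane, had 21.5 and 18.4 CPM with NGI-1, against 51.4 and 32.8 CPM with copanlisib and 28.5 and 23.6 CPM with DMSO (-1.09 ± 0.18, adjusted p = 0.0002), and was not called without copanlisib replicate 1 (0.0634). IGJ (JCHAIN), the joining chain of secreted IgM and IgA, had 23.1 and 19.1 CPM with NGI-1, against 30.4 and 43.5 CPM with copanlisib and 3.87 and 2.29 CPM with DMSO (-0.80 ± 0.18, adjusted p = 0.00887), and was lost without NGI-1 replicate 2 (0.276) or copanlisib replicate 2 (0.388). Of 12 genes of plasma cell differentiation, XBP1 and the surface receptor SLAMF7 rose and IGJ fell. SLAMF7 had 47.1 and 53.3 CPM with NGI-1, against 29.3 and 34.9 CPM with copanlisib and 53.4 and 63.8 CPM with DMSO (0.65 ± 0.12, adjusted p = 0.00116), a call lost without NGI-1 replicate 2 (0.0737) or copanlisib replicate 1 (0.105). PRDM1, the master factor of plasma cells, did not pass (-0.20, 95% confidence interval -0.39 to 0.00).

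Among NF-kB targets 1 of 22 was called higher (4.55%, against 1.10% of all genes) and 0 lower, and among chemokines and cytokines 1 of 14 was called higher and 1 lower. NFKBID, a nuclear regulator of NF-kB, had 49.3 and 41.5 CPM with NGI-1, against 20.5 and 19.9 CPM with copanlisib and 48 and 47.8 CPM with DMSO (1.17 ± 0.18, adjusted p = 4.92e-05). CCL22, a chemokine that draws CCR4-bearing T cells, had 20.9 and 18.6 CPM with NGI-1, against 3.57 and 2.05 CPM with copanlisib and 28.1 and 35.0 CPM with DMSO (2.77 ± 0.45, adjusted p = 0.000105). In both genes copanlisib lay far below DMSO (-1.25 ± 0.18 for NFKBID and -3.45 ± 0.42 for CCL22), while NGI-1 against DMSO did not pass (-0.08 ± 0.16 for NFKBID and -0.68 ± 0.31 for CCL22). NFKBID was the NF-kB target called, and CCL22 and LTB were the chemokine and the cytokine called. TNF stood at 8.39 and 5.52 CPM with NGI-1, against 6.06 and 4.46 CPM with copanlisib and 35.0 and 24.4 CPM with DMSO, a difference of 0.39 (95% confidence interval -0.17 to 0.94). NFKBIA, the inhibitor of NF-kB, differed by -0.19 (interval -0.52 to 0.14) and BCL2A1, a survival gene that NF-kB induces, by -0.01 (interval -0.27 to 0.24). The chemokines CCL3, with 4 reads over the NGI-1 libraries and 0 over the copanlisib libraries, and CCL4, with 6 reads and 1 read, were too sparse for a fold.

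TTC17, a tetratricopeptide repeat protein, had the smallest adjusted p among the named genes. It stood at 145 and 143 CPM with NGI-1, against 49.5 and 62.7 CPM with copanlisib and 40.0 and 38.1 CPM with DMSO (1.37 ± 0.09, adjusted p = 1.03e-13). Lipid synthesis moved modestly. Of 29 genes of cholesterol and fatty acid synthesis, 6 rose and 0 fell, with a median of 0.21 and 27 above 0. SREBF1, the factor that drives lipid synthesis, had 70.3 and 59.9 CPM with NGI-1, against 48.9 and 39.0 CPM with copanlisib and 62.2 and 61.7 CPM with DMSO (0.56 ± 0.11, adjusted p = 0.00197). SCD, the desaturase, had 1230.2 and 1084 CPM with NGI-1, against 910.3 and 725 CPM with copanlisib and 1179.8 and 986 CPM with DMSO (0.50 ± 0.10, adjusted p = 0.00209). In both genes the NGI-1 libraries overlapped the DMSO range and the copanlisib libraries lay below it. These calls were lost without NGI-1 replicate 1 (adjusted p = 0.216 for SREBF1 and 0.195 for SCD) and without copanlisib replicate 2 (0.184 and 0.234), and the list had 0 calls without NGI-1 replicate 1, 1 without copanlisib replicate 2, 3 without NGI-1 replicate 2 and 5 without copanlisib replicate 1. In glycolysis, of 24 genes, the glucose transporter SLC2A1 rose (0.57 ± 0.13, adjusted p = 0.0118) and PFKFB3, which makes the activator of phosphofructokinase, fell (-0.71 ± 0.14, adjusted p = 0.0014). SLC2A1 was lost without any 1 of the 4 libraries (0.0704 to 0.188), and PFKFB3 without NGI-1 replicate 2 (0.107).

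Lists tied to receptor and PI3K signalling were read against 1.10% of all genes called higher and 0.331% called lower, so that 0 or 1 call in a list of this size lies near the background. Of 23 genes of the PI3K, AKT and MTOR pathway 0 were called, and of 21 FOXO targets 1 fell, FOXO4, and 0 rose (median 0.00). FOXO4, itself a FOXO factor held in the cytoplasm when AKT is active, had 6.78 and 8.39 CPM with NGI-1, against 12.7 and 14.1 CPM with copanlisib and 7.86 and 5.15 CPM with DMSO (-0.82 ± 0.19, adjusted p = 0.0117), a call lost without NGI-1 replicate 1 (0.311) or copanlisib replicate 2 (0.157). CDKN1B, the cell cycle inhibitor p27, stood at 53.2 and 50.9 CPM with NGI-1, against 51.7 and 51.5 CPM with copanlisib and 42.1 and 38.6 CPM with DMSO, a difference of 0.01 (95% confidence interval -0.19 to 0.22). PIK3IP1, a PI3K inhibitor protein, differed by -0.59 (interval -1.36 to 0.18) and KLHL24 by -0.25 (interval -0.51 to 0.01). These intervals leave room for differences of the sizes they span.

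MYC and ribosome biogenesis gave 0 calls of 31 genes (median -0.09). Against DMSO, all 31 were lower with NGI-1 (median -0.61) and 29 of 31 with copanlisib (median -0.54). MYC stood at 104 and 82.5 CPM with NGI-1, against 122 and 82.8 CPM with copanlisib and 218 and 185 CPM with DMSO (-0.14, 95% confidence interval -0.43 to 0.16). IRF4, the factor that sustains this lymphoma class, stood at 1141 and 999.8 CPM with NGI-1, against 1325 and 915 CPM with copanlisib and 1854 and 1558 CPM with DMSO (-0.07, interval -0.31 to 0.18). In both genes the groups overlapped, and both compounds lay below DMSO. CCND2, a cyclin of G1, differed by 0.03 (interval -0.24 to 0.29). Of 29 genes of DNA replication, 23 of mitosis, 32 of B cell identity and receptor signalling, 15 of MHC class II, 15 of the BCL2 family and 31 proteasome subunits, 0 were called in either direction at this threshold. Of 16 migration and homing receptors the integrin chain ITGB7 was called higher, of 23 lysosome and autophagy genes the cholesterol transporter NPC1 was called higher, both lost without any 1 of the 4 libraries (highest adjusted p = 0.328 for ITGB7 and 0.369 for NPC1), and of 23 immediate early genes PHLDA1 was the 1 called, lower. In the B cell list CD79B, a signalling chain of the B cell receptor, stood at 658 and 661 CPM with NGI-1, against 646 and 689.9 CPM with copanlisib and 244 and 244 CPM with DMSO (-0.02, interval -0.16 to 0.13). Its partner CD79A stood at 867 and 849.6 CPM with NGI-1, against 661 and 637 CPM with copanlisib and 517 and 480.4 CPM with DMSO (0.40, interval 0.15 to 0.66, adjusted p = 0.126). BCL6, the germinal centre repressor, stood at 21.6 and 25.6 CPM with NGI-1, against 34.9 and 30.2 CPM with copanlisib (-0.47, interval -0.76 to -0.17, adjusted p = 0.142). CD79A and BCL6 were apart in these libraries without passing the threshold.

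**Figure D4:**
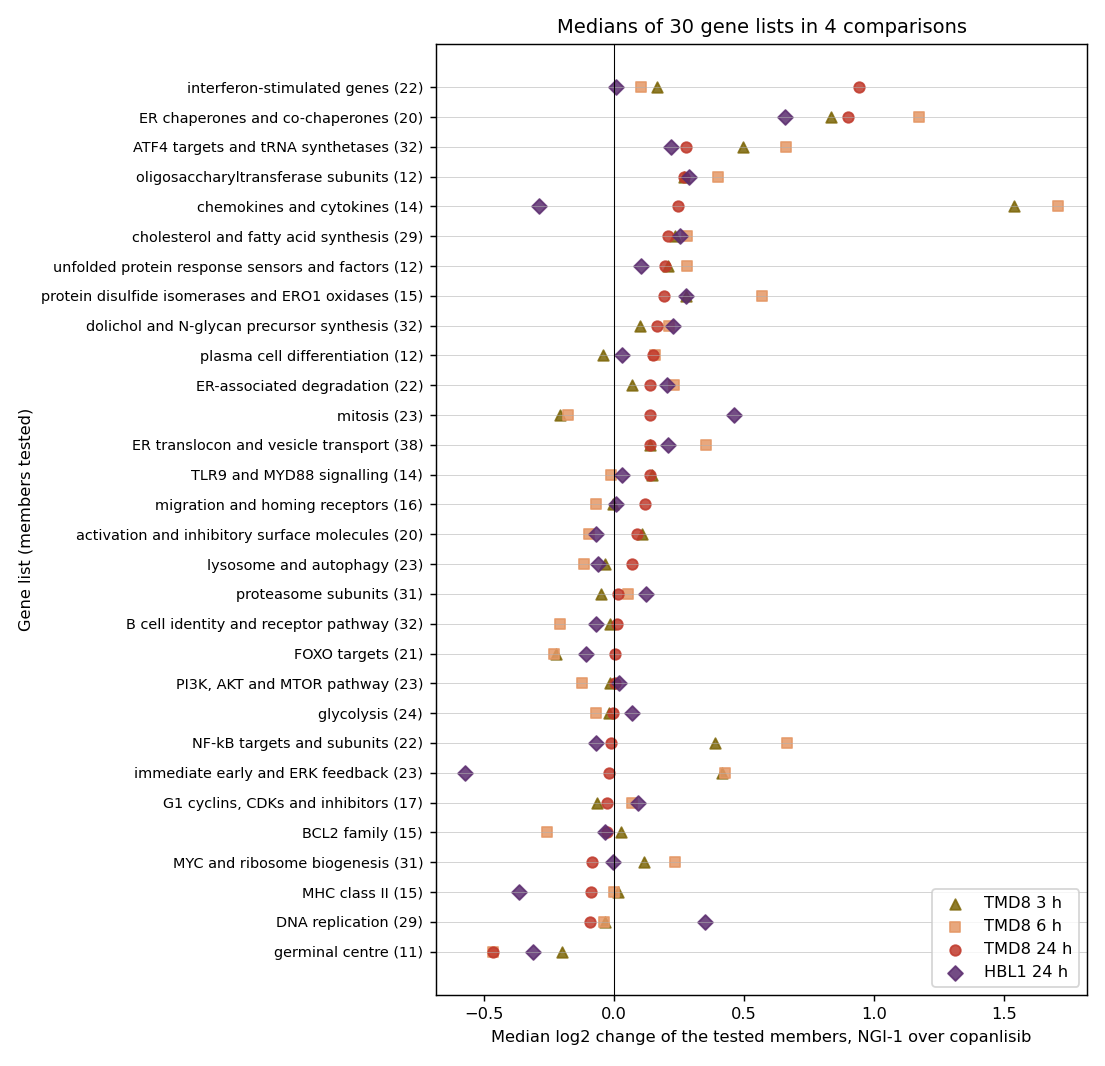
Median log2 change with NGI-1 over copanlisib over the tested members of 30 gene lists (numbers in brackets) in TMD8 at 3 h (triangles), 6 h (squares) and 24 h (circles) and in HBL1 at 24 h (diamonds). At 24 h in TMD8 interferon-stimulated genes (0.94) and ER chaperones (0.90) lie furthest to the right, while NF-kB targets and chemokines, to the right at 3 h and 6 h, lie near 0 or at 0.24.

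Set beside the earlier times, the contrast at 24 h had the fewest calls. At 3 h 215 genes were higher (1.55%) and 97 lower (0.699%), and at 6 h 460 were higher (3.31%) and 357 lower (2.57%). A direct test of the change at 24 h minus the change at 6 h called 112 genes higher at 24 h (0.807%) and 95 lower (0.684%). HSPA5 stood at 4157 and 3787 CPM with NGI-1 at 3 h, against 699 and 594 CPM with copanlisib, and at 3278 and 3594 CPM with NGI-1 at 6 h, against 546 and 512 CPM with copanlisib. Its log2 change was 2.62 ± 0.14 at 3 h, 2.70 ± 0.14 at 6 h and 1.55 ± 0.14 at 24 h, and the change at 24 h was lower than that at 6 h by -1.15 ± 0.19 (adjusted p = 0.00051). Over the ER chaperones, 12 of 20 were called higher at 3 h, 17 at 6 h and 13 at 24 h, with medians of 0.84, 1.17 and 0.90. For 4 of 20 a smaller change at 24 h than at 6 h was called. XBP1 (time difference -1.0 ± 0.18, adjusted p = 0.0012) and HERPUD1 (-0.98 ± 0.21, adjusted p = 0.00724) were smaller at 24 h too. HSPA5 and XBP1 were called in this test in each of the 8 fits that left out a library, and HERPUD1 in 6 of 8, the highest adjusted p being 0.0753.

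ATF4 targets and NF-kB targets were called mainly early. Of 32 ATF4 targets, 20 rose at 3 h, 24 at 6 h and 3 at 24 h. For 6 of them a lower change at 24 h than at 6 h was called. Of 22 NF-kB genes, 10 rose at 3 h, 15 at 6 h and 1 at 24 h. For 11 of them a lower change at 24 h than at 6 h was called. TNF stood at 72.2 and 81 CPM with NGI-1 at 6 h, against 11 and 9.38 CPM with copanlisib, a log2 change of 2.92 ± 0.18 that was lower at 24 h by -2.53 ± 0.34 (adjusted p = 1.83e-05). LTA, lymphotoxin alpha, stood at 38.8 and 39.6 CPM with NGI-1 at 6 h, against 6.91 and 5.02 CPM with copanlisib (2.73 ± 0.17), and was lower at 24 h by -2.62 ± 0.30 (adjusted p = 1.91e-06). Both genes were called in each of the 8 fits that left out a library. NFKBID, still called at 24 h, had a smaller change there than at 6 h (-1.37 ± 0.26, adjusted p = 0.00162).

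The interferon group went the other way. Of 22 genes, 4 rose and 1 fell at 3 h (median 0.16), 2 rose and 1 fell at 6 h (median 0.10), and 15 rose at 24 h (median 0.94). For 8 of them a larger change at 24 h than at 6 h was called. MX1 stood at 418 and 409 CPM with NGI-1 at 6 h, against 388 and 379 CPM with copanlisib (0.11 ± 0.11), so that its change at 24 h was larger by 1.11 ± 0.16 (adjusted p = 4.88e-05). EPSTI1 stood at 23.1 and 19.6 CPM with NGI-1 at 6 h, against 23.7 and 21.3 CPM with copanlisib (-0.07 ± 0.15), and its change at 24 h was larger by 1.49 ± 0.22 (adjusted p = 8.35e-05). At 6 h the libraries of EPSTI1 overlapped, and those of MX1 were close together. For MX1 the libraries of both compounds stood lower at 24 h than at 6 h, those with copanlisib by more. For EPSTI1 the NGI-1 libraries stood higher at 24 h than at 6 h and the copanlisib libraries lower. Changes over time within a compound were not tested. MX1 and EPSTI1 were called in this test in each of the 8 fits that left out a library. Among the lower genes, CXCL13 at 6 h had 23.5 and 26.8 CPM with NGI-1, against 30.9 and 38.6 CPM with copanlisib (-0.47 ± 0.20), and its change was lower at 24 h by -1.69 ± 0.34 (adjusted p = 0.00611), which held in 7 of 8 such fits (highest adjusted p = 0.128). RGS13 (-1.19 ± 0.19, adjusted p = 0.000246) and CREB3L1 (-1.45 ± 0.24, adjusted p = 0.000542) had a lower change at 24 h than at 6 h in each of them. TTC17, with 85.6 and 79 CPM with NGI-1 at 6 h, against 56.9 and 61 CPM with copanlisib, had a larger change at 24 h (0.89 ± 0.13, adjusted p = 7.79e-05).

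In HBL1 at 24 h, a contrast that shares no library with the one in TMD8, 371 genes were higher with NGI-1 than with copanlisib (2.67%) and 323 were lower (2.33%). Of the 153 genes higher in TMD8, 62 were also higher in HBL1 (40.5% of 153 and 16.7% of 371), and 4 were lower there (2.61%). Of the 46 lower genes, 9 were also lower in HBL1 (19.6% of 46 and 2.79% of 323), and 0 were higher. The test of the difference between the lines (TMD8 minus HBL1) called 90 genes higher in TMD8 (0.648%) and 14 lower (0.101%). ER chaperones were called in both lines, 13 of 20 in TMD8 and 11 of 20 in HBL1 (medians 0.90 and 0.66), and for 0 of 20 was a difference between the lines called. HSPA5 stood at 1403 and 1368 CPM with NGI-1 in HBL1, against 506 and 559.7 CPM with copanlisib (1.38 ± 0.14). The difference from TMD8 was 0.17 ± 0.19 (adjusted p = 0.875). TTC17 stood at 119 and 114 CPM with NGI-1 in HBL1, against 44.5 and 47.1 CPM with copanlisib (1.35 ± 0.09). Lower genes called in both lines included LTB, with 3.79 and 2.55 CPM with NGI-1 in HBL1, against 12.4 and 8.84 CPM with copanlisib (-1.74 ± 0.27, adjusted p = 3.84e-05). IL4R was another, with 105 and 96.6 CPM with NGI-1, against 163 and 161 CPM with copanlisib (-0.68 ± 0.09, adjusted p = 2.69e-06).

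The interferon group differed between the lines. In HBL1, 0 of 22 interferon-stimulated genes were called in either direction (median 0.01), and for 9 of 22 a larger change in TMD8 was called. MX1 in HBL1 stood at 119 and 122 CPM with NGI-1, against 106 and 128 CPM with copanlisib (0.04 ± 0.12), groups that overlapped. The change was 1.18 ± 0.16 larger in TMD8 (adjusted p = 1.89e-05). EPSTI1 (1.73 ± 0.24, adjusted p = 2.78e-05) and IFI6 (1.52 ± 0.27, adjusted p = 0.00114) also had a larger change in TMD8. MX1, EPSTI1 and IFI6 were called in this test in each of the 8 fits that left out a library, whereas ISG15 (1.05 ± 0.25, adjusted p = 0.026) was called in 3 of 8, with a highest adjusted p of 0.178.

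XBP1 was at 375 and 395 CPM with NGI-1 in HBL1, against 391 and 374 CPM with copanlisib, and its change was 0.78 ± 0.17 larger in TMD8 (adjusted p = 0.0141, called in 4 of 8 such fits, highest adjusted p = 0.0993). Conversely, 21 of 23 mitosis genes (median 0.46) and 9 of 29 DNA replication genes (median 0.35) rose in HBL1, against 0 and 0 in TMD8. For 0 of the mitosis genes and 3 of the DNA replication genes was the difference between the lines itself called. In the B cell list 10 of 32 genes fell in HBL1 and 0 in TMD8, and the difference was called for 4 of 32. TNFRSF13C, the receptor for the survival factor BAFF, had 18.2 and 20.9 CPM with NGI-1 in TMD8, against 15.4 and 20.3 CPM with copanlisib, and 8.32 and 6.94 CPM with NGI-1 in HBL1, against 35.2 and 27.4 CPM with copanlisib. Its change differed by 2.18 ± 0.29 between the lines (adjusted p = 1.42e-05), in each of the 8 fits that left out a library.

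**Figure D5:**
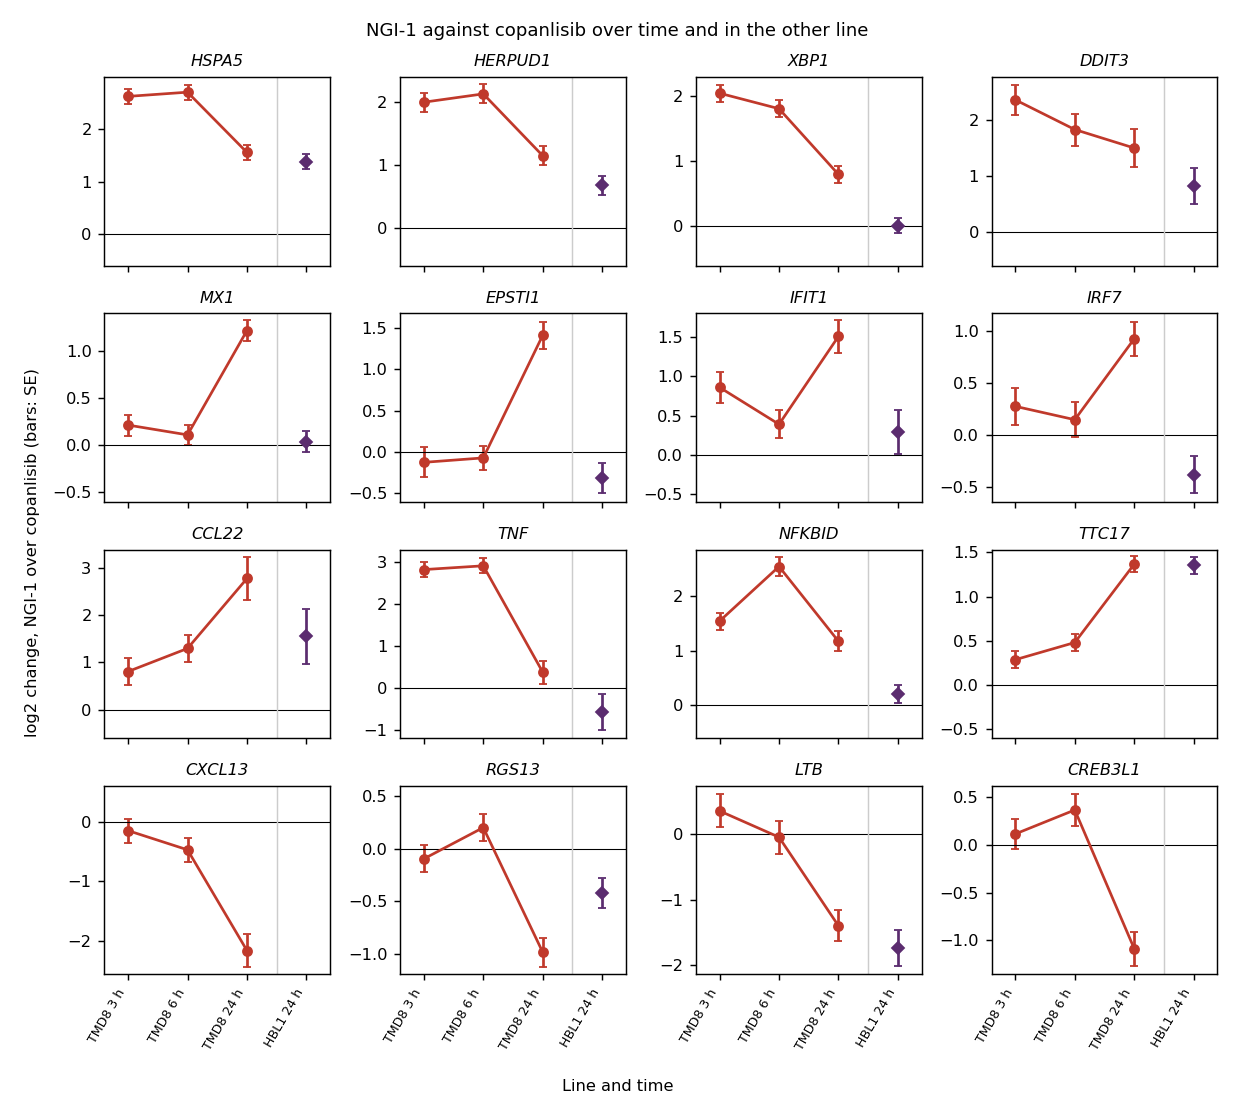
Log2 change with NGI-1 over copanlisib (points, bars are SE, n = 2 libraries per compound) for 16 genes in TMD8 at 3 h, 6 h and 24 h (circles, joined) and in HBL1 at 24 h (diamonds; none for CXCL13 and CREB3L1, with at most 3 reads in each HBL1 group). HSPA5 and XBP1 are lower at 24 h than at 6 h, MX1 and EPSTI1 are higher at 24 h than at 6 h in TMD8, and TNF, at 2.92 at 6 h, is near 0 at 24 h.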

How the data were processed

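Counted reads per gene were used as deposited by the authors. HTSeq made the counts against hg19, per the submitters' processing notes; the aligner, versions and strand setting are not given in the sources used here, so overlapping, antisense and near-identical genes (CCL3 and CCL4 copies among them) are uncertain. Of 25066 genes, 3449 had no gene ID (0.815% of reads), 1 row named no gene and was left out, and 27 symbols that had become dates were renamed. Groups came from the sample titles.

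The libraries were normalised with TMM (edgeR 4.0.16, R 4.3.3) and genes filtered with filterByExpr, leaving 13881 genes. All 48 libraries entered 1 model with 24 group means and 24 residual degrees of freedom, so that groups shared the spread (common dispersion 0.00539, a coefficient of variation of 7.34%; the libraries held 7165377 to 11999050 reads). Differences between times and lines were contrasts of the same model. CPM is per library size, not per gene length, so levels of different genes are not compared. Fits were tested on simulated data. Confidence intervals are 95%.

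The comparison, gene lists and named genes were chosen with earlier results of these data known. The 78 genes of the naming rule were, among called genes that have an ID and average 1 or more in log2 CPM, the 10 highest and 10 lowest changes, then up to 2 called members per list and direction, 30 genes fixed by name, and 3 per direction for the time and line differences. The text prints a subset; HYOU1, CRELD2, DNAJB11, DNAJC3, PPIB, FKBP2, SIL1, CALR, CANX, HSP90B1, PDIA3, PDIA4, SEL1L, EDEM1, RPN1, DDOST, PRKCSH, ISG15, OAS2, OAS3, XAF1, IFI6, EIF2AK2, STAT3, AHR, IL4R, SCD, ATF6, ERN1, EIF2AK3, MYOF and ZNF214 were added after their values were seen. A result that needs a withheld item is not reported here. Alternatives were RLE scaling, no filter or a stricter one, DESeq2 1.42.0, smaller fits, a replicate block and each library left out, where the lone sample was assumed to vary like other groups.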

Additional observations from a re-analysis of the deposited data

Results flagged for a closer look

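Where the effect of NGI-1 against copanlisib differed between TMD8 and HBL1 at 24 h, by the test of the difference itself (TMD8 minus HBL1, log2, adjusted p under 0.05 in edgeR's quasi-likelihood test), the named genes were as follows. Interferon-stimulated and related genes had a larger change in TMD8, namely PRIC285 (HELZ2) by 1.93, EPSTI1 by 1.73, IFI6 by 1.52, IFIT3 by 1.48, IRF7 by 1.31, MX1 by 1.18, XAF1 by 1.15, ISG15 by 1.05, OAS2 by 0.86 and OAS3 by 0.64. The other genes with a positive difference were EGR2 at 4.15, VPREB3 at 2.75, TNFRSF13C at 2.18, ID3 at 1.39, PLD4 at 1.25, PYCR1 at 1.02, BTG2 at 0.99, SEPTIN9 at 0.97, NFKBID at 0.96, XBP1 at 0.78 and SLAMF7 at 0.74. Lower in TMD8 were SLIT1 at -2.11, DSCC1 at -0.85, UBR7 at -0.78 and STAT3 at -0.51. Of these 25 genes, 10 were called in each of the 8 fits that left out a library: EPSTI1, IRF7, VPREB3, BTG2, SEPTIN9, TNFRSF13C, MX1, IFI6, PRIC285 and PLD4. NFKBID was called in 0 of the 8, with a highest adjusted p of 0.248.

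Where the effect in TMD8 differed between 24 h and 6 h (24 h minus 6 h, log2, same test), ER genes had a smaller change at 24 h, with HSPA5 at -1.15, XBP1 at -1.0, HERPUD1 at -0.98, HYOU1 at -0.84, PDIA4 at -0.71, HSP90B1 at -0.67, DNAJB11 at -0.63, MAGT1 at -0.53 and PDIA6 at -0.41. So did LTA at -2.62, TNF at -2.53, NFKBID at -1.37, NFKBIA at -1.20 and BCL2A1 at -0.85. For CXCL13 (-1.69) and LTB (-1.36) the negative difference was a larger change in the lower direction, with log2 changes of -2.16 at 24 h and -0.47 at 6 h for CXCL13 and of -1.40 at 24 h and -0.04 at 6 h for LTB. LOC147804 (TPM3P9, -1.67), CREB3L1 (-1.45) and RGS13 (-1.19) had changes below 0 at 24 h and above 0 at 6 h. Interferon-stimulated genes had a larger change at 24 h, with EPSTI1 at 1.49, IFIT1 at 1.12, MX1 at 1.11, XAF1 at 1.10, ISG15 at 0.98, OAS2 at 0.77 and OAS3 at 0.59. ST14 (1.39), TTC17 (0.89), KIAA0040 (0.81), SLC2A1 (0.80), PLD4 (0.64), CD79B (0.63), SREBF1 (0.60) and PRKCSH (0.48) had positive differences too; for ST14, KIAA0040 and CD79B these were changes below 0 at 6 h that lay nearer 0 at 24 h. Of these 34 genes, 13 were called in each of the 8 fits that left out a library: HSPA5, XBP1, EPSTI1, MX1, TNF, LTA, NFKBID, CREB3L1, RGS13, TTC17, CD79B, KIAA0040 and ST14. MAGT1 was called in 0 of the 8, with a highest adjusted p of 0.155.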

How the results depend on the processing

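The 199 calls at 24 h in TMD8 became 301 with no filter on low counts, 118 with only the 4 libraries in the fit (fewer samples to estimate the spread), and 103 to 135 when a library was left out; RLE scaling, DESeq2, a stricter filter, the TMD8 libraries alone and a replicate block over all libraries (281 calls) stayed within 1.5 times. A replicate block within each line and time gave 747 calls at 24 h in TMD8, 1032 at 3 h, 2025 at 6 h, 1913 in HBL1, 697 for the line difference and 1168 for the time difference. Replicate numbers are not said to pair the samples. Deviations of same-numbered libraries correlated at 0.142 between NGI-1 and copanlisib. Over the 6 pairs of TMD8 groups at 24 h they correlated at 0.094 to 0.302, highest for copanlisib and acalabrutinib. Whether equal numbers mark a shared origin cannot be told from the labels, and the block was not used for calls. With this block, calls at 24 h in TMD8 became 15 of 32 for ATF4 targets, 15 of 38 for the translocon list, 14 of 29 for cholesterol and fatty acid synthesis, 8 of 22 for ER-associated degradation, 7 of 32 for dolichol and N-glycan precursors and 6 of 23 for mitosis, all higher, and 4 of 29 for DNA replication and 5 of 11 for the germinal centre list, all lower; ER chaperones had 14 and interferon-stimulated genes 18, all higher. With a library left out, calls ran from 148 to 202 at 3 h, from 434 to 502 at 6 h, from 274 to 387 in HBL1, from 48 to 130 for the line difference and from 69 to 224 for the time difference. Only the libraries of the contrast gave 1586 calls at 6 h. For the line difference no filter gave 211 and the block over all libraries 195, and for the time difference these gave 316 and 352. RLE scaling split the HBL1 calls into 309 higher and 367 lower, where TMM gave 371 and 323. Of the values of single genes under the alternatives, 821 kept their call status, 97 lost and 14 gained a call. In 0 did the direction change with a call in either fit, and a change of sign in a gene called in neither counted as kept. Where a value moved, the cause was not tested.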
